A study of Homo sapiens with 20 samples.

Results

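Peaks of STAG1, STAG2, CTCF and SMC1A were examined at 10 interferon-stimulated genes, ISG15, USP18, IRF7, IFIT1, IFIT2, IFIT3, MX1, OAS1, IFI6 and BST2. The genes were given by name, with no threshold on the measured values, out of 20136 protein-coding gene names in the GENCODE annotation of hg19, and all 10 were found there. A peak belonged to a gene when it overlapped the annotated bounds of the gene or the 10 kb on either side. The 10 windows joined into 8 stretches of 413 kb in all and held 657 of the 1600648 peaks in the 16 lists. Upon STAG2 KD the windows held more SMC1A peaks in both replicates, 48 against 36 and 79 against 59. The whole SMC1A lists held 91582 against 82287 and 150308 against 148396. An exact permutation test of the window counts gave p = 0.667, where 0.333 is the smallest p possible. Of the 27 sites with a peak in every SMC1A list, 10 became weaker relative to the median site of each list (against 6.21% of all such sites). These calls needed the pairing of libraries by replicate, and without it 0 of the 27 were called.

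Interferon-stimulated genes are the genes that cells switch on when type I interferon reaches its receptor. The receptor activates transcription factors that bind a short promoter element, the interferon-stimulated response element (ISRE). Their products block viruses at many steps, and several of them (USP18 and ISG15 among others) also tune the pathway itself. Cohesin is the ring that forms chromatin loops and often stops at CTCF, its SMC1A subunit is present in every such ring, and each ring carries either STAG1 or STAG2.

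ChIP-seq was carried out in M14, an established human melanoma line that carries a doxycycline-inducible shRNA against STAG2. WT here means this line without doxycycline, and STAG2-KD the same line grown with doxycycline, for 5 d per the labels of replicate 1, so both groups carry the shRNA construct and every library comes from this single shRNA line. There were 2 libraries of each condition for every antibody. Replicates 1 and 2 were separate preparations with different size selection (200 to 600 bp with beads and 200 to 500 bp on a gel), and the labels do not say whether they were separate cultures, so p-values measure the spread between these libraries only. Depth, as recovered from the lists, ranged from 20.2 to 46.7 M reads (replicate 1) and from 37.4 to 71.7 M (replicate 2). The SMC1A libraries, on which several results rest, had 23 M (WT) against 25.3 M (STAG2-KD) and 48.1 M against 47.4 M. Positions are given in kb from the main transcript start along the gene, negative upstream. Where 4 values follow each other in pairs, each pair is WT then STAG2-KD, replicate 1 first. Expression was not measured in these libraries, so no value below is an expression level.

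The promoters are shown first, because the ISRE is the element through which interferon reaches such genes. The spelling searched was GAAA, any 2 bases and GAAA again. On both strands from 250 bases before to 50 bases after the main transcript start it occurred in the promoters of 7 of the 10 genes and of 19 of 30 other interferon-stimulated genes. Over all 19854 protein-coding promoters of the same length the share was 3.29%. The 3 promoters without a match to these letters were those of IRF7, MX1 and OAS1. Matches are shown for 6 of the 7 genes that have them. Each line gives hg19 bases −160 to −61 relative to the main start on the strand of the gene, 5′ to 3′, with every match in capitals. A match on the opposite strand reads TTTC, 2 bases and TTTC, and the matches of ISG15 and of BST2 overlap each other.
ISG15 (chr1:948717-948816, plus strand): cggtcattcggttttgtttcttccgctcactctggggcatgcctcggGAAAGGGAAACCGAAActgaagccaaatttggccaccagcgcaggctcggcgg
IFIT1 (chr10:91152220-91152319, plus strand): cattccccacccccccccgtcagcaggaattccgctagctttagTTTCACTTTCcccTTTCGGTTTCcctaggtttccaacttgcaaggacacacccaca
IFIT2 (chr10:91061643-91061742, plus strand): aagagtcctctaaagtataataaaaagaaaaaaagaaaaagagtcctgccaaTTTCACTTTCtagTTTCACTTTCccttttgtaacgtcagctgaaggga
IFIT3 (chr10:91087594-91087693, plus strand): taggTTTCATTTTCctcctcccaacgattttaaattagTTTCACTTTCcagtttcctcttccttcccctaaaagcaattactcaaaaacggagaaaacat
IFI6 (chr1:27998764-27998863, minus strand): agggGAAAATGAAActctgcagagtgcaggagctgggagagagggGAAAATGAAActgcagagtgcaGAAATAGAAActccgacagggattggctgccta
BST2 (chr19:17516500-17516599, minus strand): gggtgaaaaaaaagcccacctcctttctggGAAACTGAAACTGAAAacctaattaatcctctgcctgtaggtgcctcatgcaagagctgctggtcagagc

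Peaks over these elements differed widely among the genes. The 3 matches of IFI6 lay under a peak in all 16 lists, and the matches of ISG15 in 14. The IFIT1 matches were covered in 4 lists. These were SMC1A in WT of replicate 2 and in both STAG2-KD libraries, and STAG1 in STAG2-KD of replicate 2. Those of IFIT3 lay under a peak in 5 lists, those of IFIT2 in 4 or 5 and those of BST2 in 4. At IFIT1, IFIT2 and IFIT3 no CTCF peak covered a match in any of the 4 CTCF lists.

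The first comparison was whether the number of peaks in the windows changed. SMC1A peaks in the windows numbered 36 (WT) and 48 (STAG2-KD), then 59 and 79 in the other replicate, a log2 ratio of 0.42 each time. Over the windows of all protein-coding genes SMC1A peaks per Mb went from 38.8 to 42.6 and from 68.1 to 67.8, and over the windows of the 10 genes from 87.1 to 116 and from 143 to 191 per Mb. STAG1 peaks numbered 23 and 37, then 38 and 40, which gives 0.38 ± 0.43 (mean log2 ratio, SD, n = 2). STAG2 peaks, those of the knocked-down protein, numbered 27 and 29, then 45 and 43, while over all protein-coding windows they went from 35.1 to 26.1 and from 51.9 to 46.2 per Mb. CTCF peaks numbered 39 and 33, then 42 and 39, which gives −0.17 ± 0.09 (mean log2 ratio, SD, n = 2). In a two-sided exact permutation test of 2 against 2 libraries p was 0.667 for STAG1, CTCF and SMC1A and 1.00 for STAG2, where the smallest p this design allows is 0.333, so the replicates are given side by side. With lists cut to equal length the mean log2 ratio of STAG1 was −0.01.

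**Figure D1:**
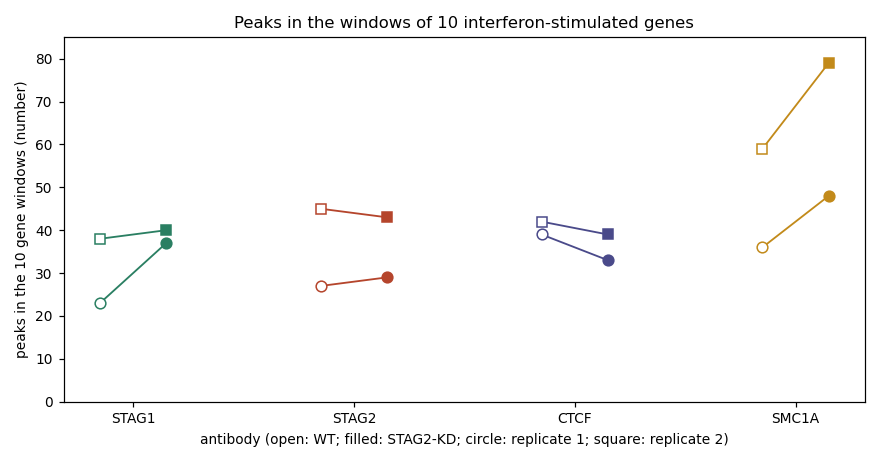
Number of peaks in the windows of the 10 genes (vertical axis) for each antibody, with open symbols for WT, filled symbols for STAG2-KD, circles for replicate 1 and squares for replicate 2. The SMC1A lines slope upwards in both replicates, from 36 to 48 and from 59 to 79 peaks, and the 4 CTCF points stay between 33 and 42.

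A peak was called lost when it overlapped no STAG2-KD peak of the same antibody and replicate, and gained when it was a STAG2-KD peak that overlapped no WT peak. For STAG2, 4 of 27 WT peaks in the windows were lost in replicate 1 (14.8%, against 32.2% over the whole list), and 8 of 45 the other time (17.8%, against 22.1%). STAG2 peaks gained made up 13.8% (against 6.62%) and 14% (against 12%). For SMC1A, 16 of 48 STAG2-KD peaks were gained in replicate 1 (33.3%, against 28.6%), and 34 of 79 the other time (43.0%, against 29.7%). For STAG1 the gained share was 45.9% in replicate 1 (17 of 37 peaks, against 31.7%) and 15% in the other (6 of 40, against 18.6%), so it lay above the background in only 1 of the 2 replicates. STAG1 peaks lost made up 13% (against 6.42%) and 10.5% (against 13.6%). For CTCF 23.1% of WT peaks were lost in replicate 1 (against 12.3%), and 19.0% the other time (against 16.9%). CTCF peaks gained made up 9.09% (against 15.1%) and 12.8% (against 12.1%), and SMC1A peaks lost 11.1% (against 19.1%) and 20.3% (against 25.8%). Gained SMC1A peaks were weak, with a median strength percentile within their list of 21.1 and 25.1 in the 2 replicates, whereas it was 55.5 and 58.9 for the SMC1A peaks that overlapped a WT peak. A strength percentile ranks the −log10 p-value of a peak among all peaks of its own list, so that 100 is the strongest.

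Few sites changed in the same way in both replicates. Of the 46 stretches under an SMC1A peak in both STAG2-KD libraries, 7 (15.2%) touched no SMC1A peak of WT, where 6.77% of all such stretches did. The corresponding counts were 5 of 36 for STAG1 (against 6.91%), 0 of 29 for STAG2 (against 0.897%) and 0 of 31 for CTCF (against 2.22%). Sites lost in both replicates numbered 0 of 20 for STAG1 (against 1.67%), 0 of 27 for STAG2 (against 5.47%), 2 of 37 for CTCF (against 3.35%) and 0 of 35 for SMC1A (against 4.01%). With only peaks whose −log10 q-value reached 5, the SMC1A count was 2 in place of 7, and when whole peaks had to be free of a WT peak the STAG1 count was 3 in place of 5. The 7 gained SMC1A sites lay in the windows of 5 of the 10 genes, where 20.3% of protein-coding genes and 8 of 30 other interferon-stimulated genes held such a site. The 4 genes with a gained STAG1 site were IFI6, IFIT1, IFIT3 and IRF7, where 19.3% of protein-coding genes and 2 of 30 other interferon-stimulated genes held one. By whole peaks only IFI6 and IRF7 kept one, since at IFIT1 and IFIT3 the gained stretch was part of a peak that touched a STAG1 peak of WT.

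Peaks were also counted along the transcript, from the main start to 5 kb past its end. This stretch was chosen after the gained sites had been seen and takes in those of ISG15, IFIT3 and IRF7, so its counts describe where the SMC1A peaks lay and are no further evidence of a change. Over the 10 genes SMC1A peaks there numbered 11 and 21, then 24 and 47, which gives 0.95 ± 0.03 (mean log2 ratio, SD, n = 2). ISG15, IFI6, IFIT1, IFIT2, IFIT3 and IRF7 each had more SMC1A peaks upon STAG2 KD in both replicates, where 13.3% of 19854 protein-coding genes and 7 of 30 other interferon-stimulated genes did. STAG1 had more peaks in both replicates at 0 of the 10 genes (against 15.9%), STAG2 at 0 (against 2.24%) and CTCF at 0 (against 5.58%). IFIT3 had 1 and 4 SMC1A peaks, then 3 and 11. USP18 went from 2 to 1 and from 2 to 3, and MX1 from 1 to 1 and from 5 to 4, so neither had more peaks in both replicates. USP18 was the 1 gene with fewer STAG1 peaks in both (against 1.56% of all genes) and with fewer CTCF peaks in both (against 8.44%).

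**Figure D2:**
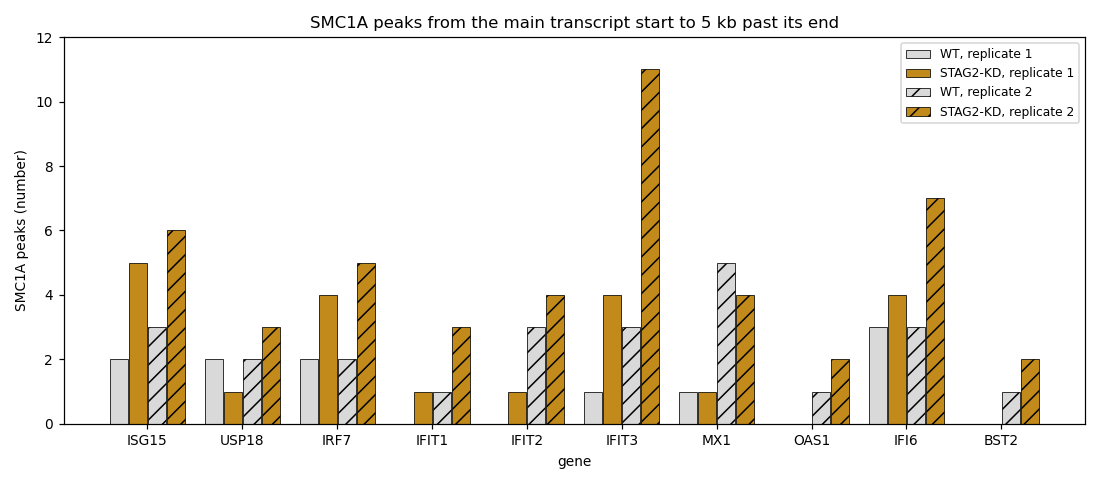
Number of SMC1A peaks between the main transcript start and 5 kb past the transcript end (vertical axis) for each of the 10 genes, in grey for WT and in colour for STAG2-KD, plain for replicate 1 and hatched for replicate 2. The coloured bars stand above the grey bars of the same replicate at 6 genes, with 11 against 3 peaks at IFIT3 in replicate 2.

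ISG15 encodes a ubiquitin-like protein that is attached to other proteins during the interferon response. Its window was the richest, with 128 peaks over the 16 lists. At the main start (−0.08 kb) the summit fold enrichment of SMC1A, its pileup over expected background, was 3.27 and 5.26, then 3.48 and 5.82. The STAG2 fold there was 3.50 and 4.50, then 2.69 and 4.24. SMC1A and STAG2 were thus higher upon STAG2 KD in each replicate at this site, but neither passed the site-level test described further on. Both gained SMC1A sites of ISG15 lay inside the gene, at chr1:949375-949559 in its coding exon and at chr1:949734-949835, whose strongest summit fell in the annotated UTR. The first had 17 summit reads where 4.34 were expected and, in replicate 2, 24 where 8.68 were expected. The other had 11 against 2.46 and 22 against 5.97 expected reads. Reads given for such sites are those at the summit of each whole peak. That summit can lie outside the stretch shared by both replicates, as both did at the other site (chr1:949731 and chr1:949868). No other antibody had a peak at either place in any list. A WT SMC1A peak would have needed at least 7 reads at the lowest background, and more where more reads are expected, as in STAG2-KD at both places.

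ISG15 had 3 sites that were present in all 16 lists, called standing sites here. At the cluster at −11.48 kb, within 1 kb of the start of HES4 and of a long ISG15 transcript, every list had a peak. The SMC1A folds there were 24.4 and 11.4, then 11.5 and 10.3. The CTCF fold was 92.0 and 49.8, then 44.8 and 38.6, with percentiles of 98.9 and 92.7, then 98.7 and 98.5. At 2.07 kb, past the end of the gene, the SMC1A fold was 11.6 and 6.99, then 10 and 6.70. At 5.94 kb, the farther site past the gene, it was 17.9 and 12.3, then 11 and 12.2. The SMC1A fold was thus lower in both replicates at the first and the second of these sites but only in replicate 1 at the last. Within the upstream cluster, a separate SMC1A stretch near −13.67 kb had folds of 9.30 and 10.1, then 6.09 and 9.57.

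USP18 is the protease that removes ISG15 from proteins and also restrains the interferon receptor. A peak within 1 kb of its main start was seen in 9 lists. SMC1A folds there were 5.93 and no peak, then 5.99 and 3.66. STAG2 folds were 6.09 and no peak, then 6.69 and 2.94. STAG1 had 5.84 and no peak, then 3.54 and 4.02. The strongest site of USP18 lay in an intron 7.18 kb downstream of the start and was present in all 16 lists. SMC1A folds at that site were 16 and 8.48, then 15.3 and 9.08. STAG2 folds were 48.4 and 21.7, then 36.7 and 19, and STAG1 folds 34.5 and 29.8, then 25.8 and 23.2. In percentiles STAG2 went from 92.7 to 73 and from 97.7 to 82.8, so all 3 cohesin subunits ranked lower in STAG2-KD than in WT in each replicate. A weak CTCF site at chr22:18650650-18650696, in an intron, was lost in both replicates, with 9 and 11 summit reads in WT. Both summits, chr22:18650608 and chr22:18650767, lay outside this shared stretch.

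**Figure D3:**
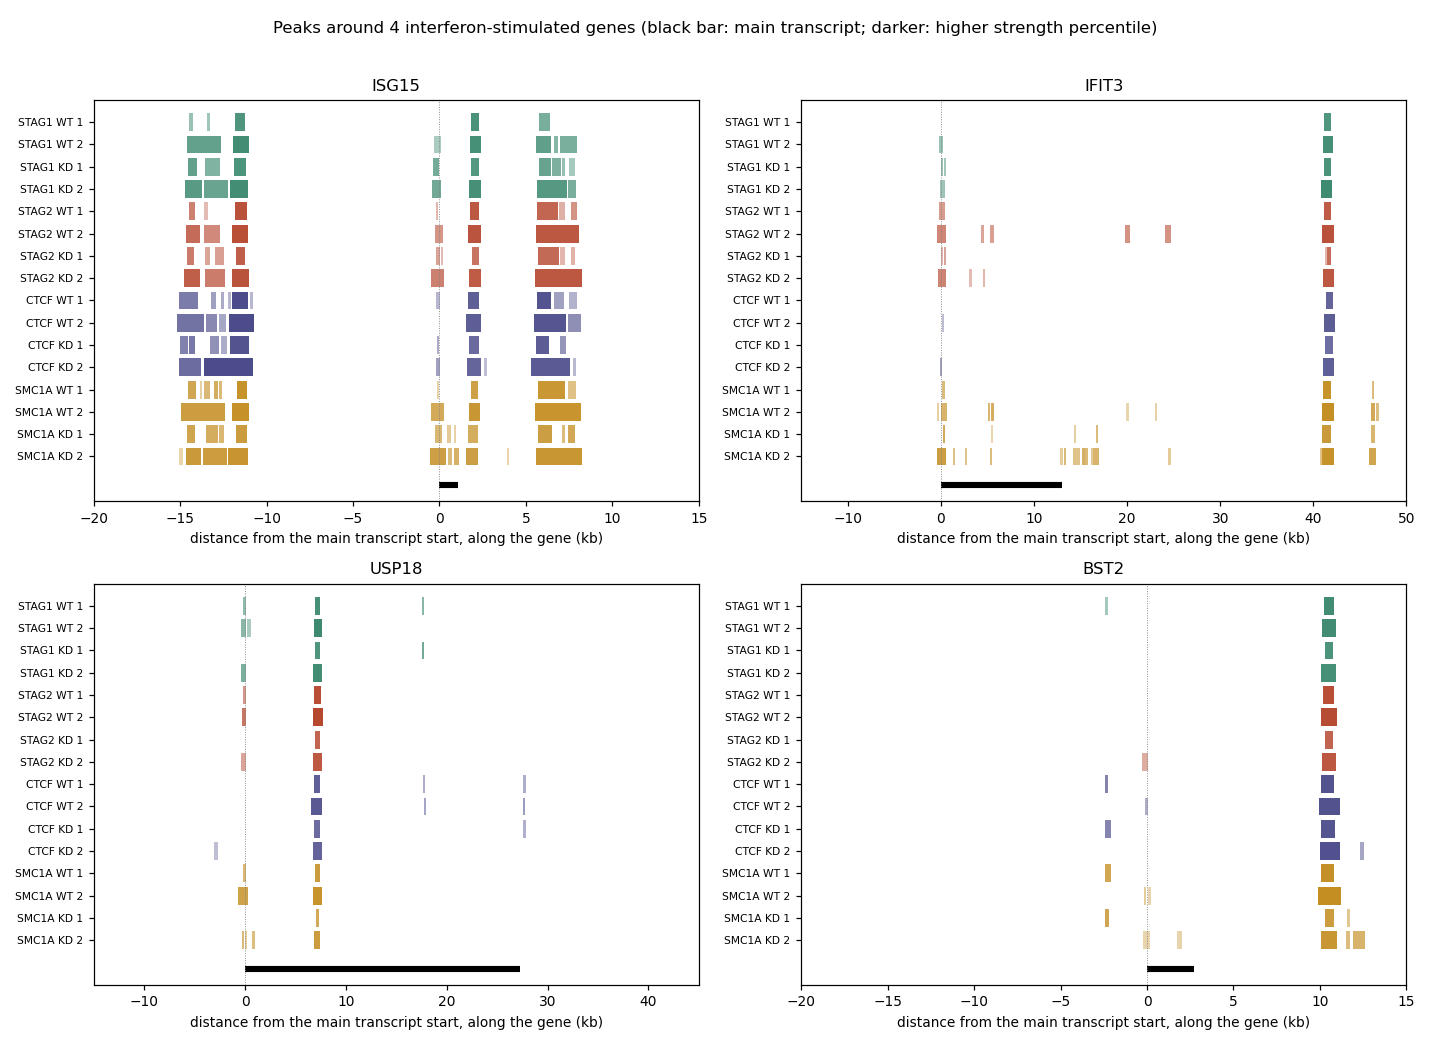
Peaks in the windows of ISG15, IFIT3, USP18 and BST2 drawn against the distance from the main transcript start in kb, along the gene, with 1 row for each list (antibody, WT or STAG2-KD as KD, replicate 1 or 2) and the main transcript as a black bar. Columns of dark bars mark the standing sites present in all 16 lists, such as that of USP18 at 7.18 kb, and the scattered pale SMC1A bars of the STAG2-KD rows in ISG15 and IFIT3 mark the weak gained peaks.

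IRF7 is the transcription factor that amplifies interferon production and was the barest of the 10 genes, with 29 peaks in all and none present in every list. STAG1 and STAG2 had 0 peaks in its window in WT of replicate 1 and 2 each in WT of replicate 2. Its strongest site, 3.68 kb downstream of the start and past the transcript end, had CTCF and SMC1A peaks in every list of these antibodies. CTCF folds were 9.29 and 15.4, then 10.6 and 12.8. SMC1A folds at this site were 9.13 and 5.38, then 4.44 and 4.70. STAG1 peaks appeared there upon STAG2 KD in both replicates, at chr11:612155-612288, with 13 reads against 2.25 expected and 15 against 4.91. The gained SMC1A site of IRF7 lay in an intron at chr11:614685-614779, with 9 reads against 1.24 expected and 16 against 4.34. The replicate 1 summit, chr11:614802, lay outside this stretch.

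The IFIT genes encode proteins that bind foreign RNA, and IFIT2, IFIT3 and IFIT1 lie next to each other on chromosome 10, inside the bounds of a long annotated LIPA transcript. At the IFIT3 start, the SMC1A folds were 5.02 and 8.48, then 2.92 and 7.70. In percentiles this site moved from 34.9 to 57.7 and from 45 to 73. STAG2 folds were 4.78 and 5.47, then 3.44 and 5.09, and CTCF had no peak in replicate 1 and folds of 2.71 and 4.09 in replicate 2. Of the gained SMC1A sites, chr10:91102043-91102162 and chr10:91104371-91104504 lay 14.35 and 16.68 kb from the IFIT3 start, within 5 kb past the end of its main transcript. The peaks there had 8 summit reads against 1.15 expected and 11 against 1.12 (replicate 1), then 17 against 5.79 and 14 against 2.85 (replicate 2). The replicate 2 summits, chr10:91102559 and chr10:91104506, lay outside the named stretches, whereas those of replicate 1, chr10:91102084 and chr10:91104428, lay within them. No list of STAG1, STAG2 or CTCF had a peak at either.

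At the standing IFIT3 site, 41.72 kb from the start, SMC1A folds were 28.2 and 16.1, then 21.7 and 18.6. This site lay within the annotated bounds of IFIT3 but past the end of its main transcript, and nearer to the main start of IFIT1. The sites of IFIT1 differed among themselves. Its strongest site, at −3.23 kb, had SMC1A folds of 10.8 and 17, then 17 and 19.8, and CTCF folds of 26.9 and 51.4, then 39.4 and 39.3. CTCF thus differed in replicate 1 and hardly in replicate 2, and the site was called for no antibody. The IFIT1 start had SMC1A peaks in WT only in replicate 2, with a fold of 3.80, and in both STAG2-KD libraries, with 6.37 and 4.86. At a site 22.20 kb downstream, near the IFIT5 start, part of a CTCF peak at chr10:91174833-91174952 was lost, but CTCF peaks remained beside it in every list. SMC1A folds at that site were 9.89 and 6.39, then 5.20 and 4.70, a mean log2 difference of −0.65 that was not called (limma adjusted p = 0.0879 with the block, 0.267 without). At IFIT2 the strongest site, at −8.46 kb, had SMC1A folds of 8.16 and 6.10, then 5.83 and 9.56, with no common direction. No peak lay at the main IFIT2 start in any list of replicate 1, whereas SMC1A had folds of 3.64 and 3.03 there in replicate 2.

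MX1 is a GTPase that traps viral nucleocapsids, and OAS1 makes the messenger that activates RNase L. The strongest MX1 site lay 34.58 kb from the main start, in an intron within the annotated gene bounds but past the end of the main transcript. Its SMC1A percentiles were 97.8 and 97.9, then 98.5 and 97.8, so its rank hardly moved. At the start of a longer MX1 transcript, at −5.67 kb, STAG2 folds were 6.94 and 7.35, then 5.27 and 10.2. No list had a peak within 1 kb of the main MX1 start. The strongest OAS1 site, at −6.45 kb, had CTCF folds of 75.8 and 43.5, then 43.2 and 30.2, and SMC1A folds of 21.9 and 19, then 16 and 14. The gained SMC1A site in the OAS1 window lay in an intron of OAS3, at chr12:113378087-113378242, with 13 reads against 1.71 expected and 24 against 4.12.

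IFI6 is a small membrane protein that protects cells from viral replication and cell death, and BST2 (tetherin) holds budding virus on the cell surface. IFI6 had the highest ranked site of the 10 genes, 8.87 kb downstream of the start within LINC02574, with a mean percentile of 94.1 over 16 lists. SMC1A folds there were 34.6 and 23.9, then 19.7 and 16.5. At 2.87 kb, in the annotated IFI6 UTR, STAG2 folds were 35.2 and 13.7, then 20 and 10.2, and SMC1A folds 39.7 and 19.8, then 19.2 and 15. IFI6 also had 2 sites that had gained STAG1 peaks in both replicates, at chr1:27983255-27983375 and chr1:27986556-27986859. Within 1 kb of the main BST2 start a peak was present in none of the replicate 1 lists and in 4 of the replicate 2 lists. Its only site in all 16 lists lay 10.52 kb downstream, within 1 kb of a CCDC194 start. SMC1A folds at that site were 32.1 and 17.9, then 24 and 14.9, and STAG2 folds 51.9 and 23.9, then 32.6 and 17.8. The gained SMC1A site of the window, chr19:17504703-17504860, lay next to it in a coding exon of CCDC194, with 9 reads against 1.12 expected and 12 against 2.73.

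**Figure D4:**
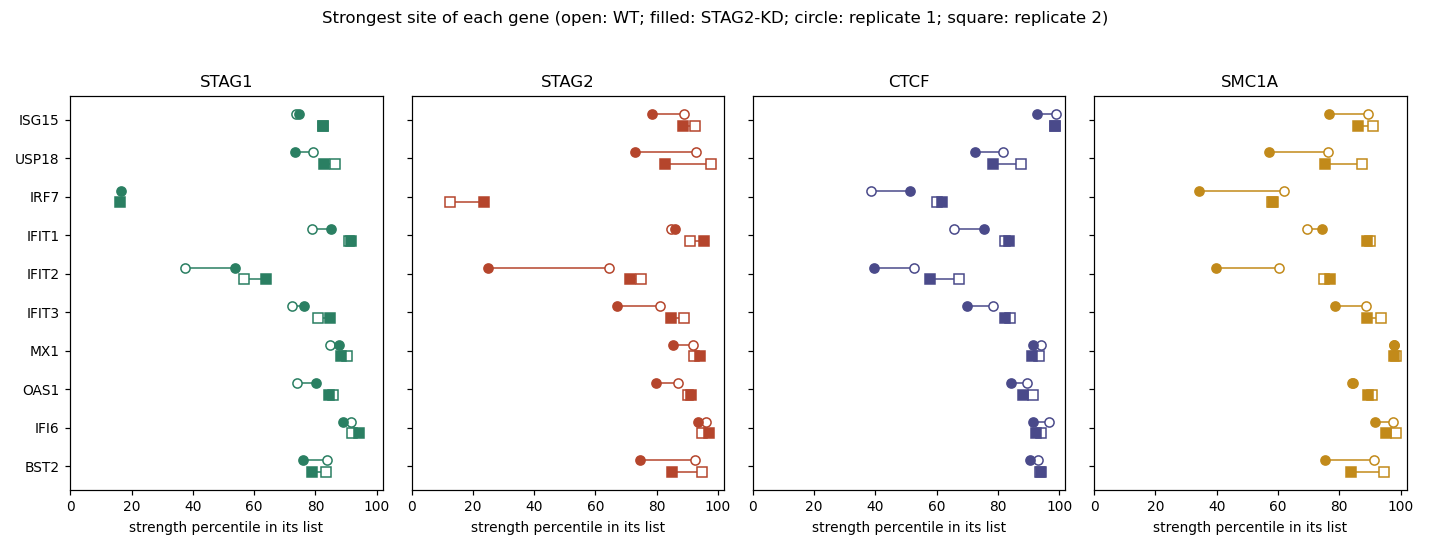
Strength percentile within its list (horizontal axis, 100 is the strongest peak) of the strongest site of each gene, in 1 panel for each antibody, with open symbols for WT, filled symbols for STAG2-KD, circles for replicate 1 and squares for replicate 2. USP18 and BST2 shift to lower STAG2 and SMC1A percentiles in both replicates, MX1 stays near 98 for SMC1A, and IRF7 has no WT symbol for STAG1 and no replicate 1 symbol for STAG2, since these lists had no peak there.

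The site-level test asked whether the fold enrichment changed at sites that had a peak in all 4 lists of an antibody. It was fitted with limma on log2 fold enrichment over all such sites of the genome, with each list centred on its own median, and p-values were adjusted by Benjamini-Hochberg over all of them. Such sites in the windows numbered 17 (STAG1), 21 (STAG2), 22 (CTCF) and 27 (SMC1A). Without a replicate term the fit called 0 of them for each antibody, where 0.221% of all SMC1A sites were called higher and 0.330% lower, and 0.894% and 0.264% of all STAG2 sites. Over all sites STAG1 and CTCF had 0 calls as well. At an unadjusted p under 0.05 stood 5 STAG1 sites (against 13.2% of all sites), 6 STAG2 sites (against 14.5%), 1 CTCF site (against 12.8%) and 12 SMC1A sites (against 17.7%). Because libraries of the same number came from the same preparation, the fit was also made with the replicate as a block.

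With the replicate block, 10 of the 27 SMC1A sites were lower upon STAG2 KD (against 6.21% of all SMC1A sites) and 1 was higher (against 4.38%). The median log2 difference of the 27 sites was −0.46, where that of all SMC1A sites was −0.06. The lower sites lay in the windows of USP18, BST2, ISG15, IFI6, IFIT3 and MX1. At the intronic USP18 site the difference was −1.17 in replicate 1 and −1.02 in replicate 2, a mean of −1.10 ± 0.23 (SE, limma adjusted p = 0.00841 with the block, 0.0613 without). At the BST2 site 10.52 kb downstream it was −1.03 ± 0.21 (SE, limma adjusted p = 0.00725 with the block, 0.103 without). ISG15 was lower at 2 sites, by −1.36 and −0.43 in the 2 replicates at the upstream cluster and by −0.99 and −0.85 past its end. IFI6 was lower at all 3 of its sites present in the 16 lists, by −0.79 and −0.52 at 8.87 kb, −1.26 and −0.63 at 2.87 kb and −1.31 and −0.45 at the start. The differences at the IFI6 start and at the ISG15 cluster were thus clearly smaller in replicate 2 than their means of −0.88 and −0.89. The IFI6 call at 8.87 kb stood at the edge of the threshold (limma adjusted p = 0.0498 with the block, 0.327 without). IFIT3 was lower at the site 41.72 kb away, by −1.07 and −0.50. The MX1 window was lower at 2 weaker sites, by −0.71 and −1.24 near 39.88 kb and by −1.01 and −0.68 near 51.73 kb. The nearer site lay in an intron of both MX1 and its neighbour TMPRSS2, and the farther one in an intron of TMPRSS2 alone. The only site called higher was the IFIT3 start, with 0.50 in replicate 1 and 1.13 in replicate 2, a mean of 0.81 ± 0.25 (SE, limma adjusted p = 0.0435 with the block, 0.148 without).

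The other antibodies had fewer calls with the block, but the median difference of their window sites was also below that of all sites. It was −0.47 against −0.07 for STAG1, −0.38 against −0.07 for CTCF and −0.06 against 0.05 for STAG2, so a lower median was not particular to SMC1A. STAG2 was lower at 3 of 21 sites (against 4.80%) and higher at 3 (against 7.59%). The lower sites were those of USP18 at 7.18 kb, BST2 at 10.52 kb and IFI6 at 2.87 kb, by −0.72, −0.67 and −0.83, each also lower for SMC1A. The higher sites were near −14.30 and −13.01 kb of ISG15 and at the upstream MX1 start, by 0.86, 0.89 and 0.85. STAG1 was lower at 3 of 17 sites (against 5.32%), namely the IFI6 start, IFI6 at 2.87 kb and BST2 at 10.52 kb, and higher at 0 (against 2.90%). At IFI6 2.87 kb the STAG1 difference was −1.68 in replicate 1 and −0.05 in replicate 2, so that call rests on replicate 1, and at the IFI6 start it was −1.26 and −0.46. CTCF was lower at 3 of 22 sites (against 8.68%) and higher at 0 (against 4.78%). The 3 lay upstream of ISG15, upstream of OAS1 and near 51.52 kb in the MX1 window, within TMPRSS2. The CTCF difference upstream of ISG15 was −1.02 in replicate 1 and −0.22 in replicate 2. These differences are relative to the median site of each list. Without centring, the median difference over all sites was 0.22 (STAG1), −0.27 (STAG2), 0.01 (CTCF) and 0.21 (SMC1A), and the 10 lower SMC1A sites still stood at −0.83 to −0.39.

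**Figure D5:**
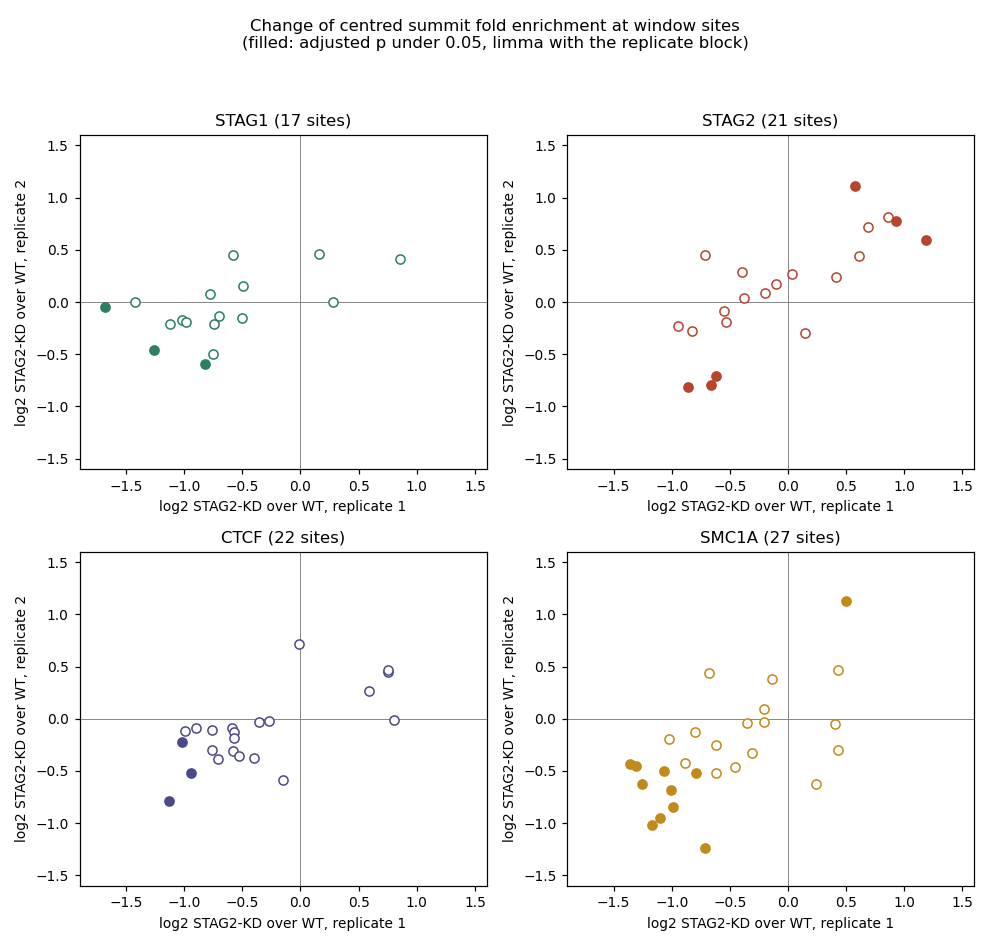
Log2 difference of centred summit fold enrichment, STAG2-KD over WT, in replicate 1 (horizontal axis) and replicate 2 (vertical axis) for the window sites present in all 4 lists of each antibody, filled where the adjusted p from limma with the replicate block was under 0.05. The 10 filled SMC1A points of the lower left quadrant fell in both replicates, and the filled point of the upper right quadrant is the IFIT3 start.

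The difference also varied with site strength over the whole genome. For SMC1A, the weakest 10% of all sites had a median difference of −0.26 and −0.21 in the 2 replicates, and the strongest 10% of 0.01 and −0.03. Only 1 of the 10 lower SMC1A sites, that of MX1 near 39.88 kb, lay in the weakest 10%. For STAG2 the weakest 10% stood at 0.39 and 0.14, and for STAG1 at −0.45 and −0.15. The ISG15 site near −13.01 kb, called higher for STAG2, lay in that weakest STAG2 group, and the other sites called higher did not. The ISG15 and IFIT3 starts lay there too and were not called for STAG2. After quantile normalisation of the 4 lists, an alternative chosen after the data were seen, the block fit again called 10 SMC1A sites lower (against 6.01%) and 1 higher (against 6.23%), with −1.11 at USP18, −1.04 at BST2 and 0.89 at the IFIT3 start. Under that normalisation STAG1 had 0 sites higher (against 3.90%) and 0 lower (against 4.05%). STAG2 had 1 higher (against 5.65%) and 3 lower (against 5.39%). CTCF had 0 higher (against 3.79%) and 1 lower (against 3.85%), at OAS1 by −0.66 (limma adjusted p = 0.0480).

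The 92 sites of the windows differed in which proteins they held. Of these, 14 had a peak in all 16 lists and belonged to the windows of 9 genes, every one but IRF7, with a median mean percentile of 82.3 against 26.9 for the other sites. Sites in all 16 lists made up 15.2% of the windows' sites and 16.6% of the 224475 merged sites of the whole lists. At the other extreme 37 sites had a peak in a single list (40.2%, against 32.5%), 22 of them an SMC1A peak of STAG2-KD (23.9%, against 10.6%). A site in a single list was not seen in the other replicate. The longest list was SMC1A in STAG2-KD of replicate 2, with 150308 peaks from a −log10 p-value of 2. The single-list sites from 12.88 to 16.25 kb of IFIT3 were all of that library. There were 39 sites with SMC1A peaks alone (42.4%, against 23.6%), of which 28 were present only in STAG2-KD (30.4%, against 11.1%) and 9 only in WT (9.78%, against 9.90%). The share of SMC1A peaks with a CTCF peak of the same condition and replicate was 63.9% and 52.1%, then 52.5% and 40.5%. Over whole SMC1A lists the shares were 65.5% and 64%, then 54.5% and 54.1%.

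For the few STAG2 peaks lost in the windows, STAG1 peaks at the same place were counted. Of the 4 STAG2 peaks lost in replicate 1, 3 had a STAG1 peak already in WT and 1 had none in either condition. Of the 8 lost in replicate 2, 2 had STAG1 in WT, 1 had it only in STAG2-KD and 5 had none. Over all lost STAG2 peaks 35.9% and 25.1% had STAG1 in WT, 20.4% and 9.95% only in STAG2-KD, and 43.7% and 65% in neither. The 4 and 8 peaks of the windows are too few to compare with these shares.

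The CTCF core motif was searched within 100 bp of the CTCF summit of WT replicate 1. It was found at 4 of the 14 sites present in all lists. Over all CTCF peaks of that library the share was 21.1%, over the strongest 20% of them 40.0%, and 5 kb away from the summits 0.763%. The motif is a strict 11-base core, so a site without a match may still be a CTCF site. The 4 sites with a match lay near ISG15, IFI6, IFIT1 and OAS1, and other standing sites near ISG15, IFI6 and IFIT1 had none. Their 4 sequences are shown 5′ to 3′ on the strand of the motif, with the motif in capitals.
ISG15, 2.07 kb (chr1:950922-950962, plus strand): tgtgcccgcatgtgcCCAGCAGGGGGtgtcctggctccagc
IFI6, 8.87 kb (chr1:27989831-27989871, minus strand): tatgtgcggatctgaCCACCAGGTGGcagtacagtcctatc
IFIT1, −3.23 kb (chr10:91149197-91149237, minus strand): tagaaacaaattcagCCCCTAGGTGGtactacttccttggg
OAS1, −6.45 kb (chr12:113338261-113338301, plus strand): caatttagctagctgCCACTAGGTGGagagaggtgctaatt

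The motif centres lay between −19 and 17 bp from the summits. In the fit with the replicate block the site of ISG15 was lower for SMC1A upon STAG2 KD and so was that of IFI6. The OAS1 site was lower for CTCF in that fit, and the IFIT1 site was called for no antibody.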

How the data were processed

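ChIP-seq peak lists of 4 antibodies in M14 cells were used, 16 in all, each of 1 library. No list came from the 4 inputs, which were controls only. Per the labels, replicate 1 was processed with Bowtie2 and MACS2 and replicate 2 with CASAVA 1.4, BWA, SAMtools, Picard, MACS2 and deepTools, so the aligner differed, although the study's methods name bowtie2 throughout, and both used hg19. For each peak the authors deposited a fold enrichment at the summit (a ratio of pileup to expected background), a −log10 p-value and a −log10 q-value. A whole-number score that the authors deposited beside these was not used. The lists as deposited start at a −log10 q-value of 2 (replicate 1) or a −log10 p-value of 2 (replicate 2), so list lengths differ between replicates and WT and STAG2-KD were compared within a replicate.

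Summit reads, expected reads and depth were worked out from fold and p-value together, with a 2.7 Gb genome and reads extended to the width of the narrowest peak (120 or 150 bp) as assumptions. All 657 window peaks came out as whole reads within 0.002 of the deposited −log10 p-value, and the method was tested on 4 simulated lists. Python 3.11.15 and R 4.3.3 with limma 3.58.1 were used. The lists of the 8 replicate pairs were checked and none were identical.

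Intervals overlapped when they shared at least 1 bp. A site lost or gained in both replicates was the overlap of both peaks of 1 condition that touched no peak of the other. Log2 fold enrichment was tested with limma (lmFit and eBayes with a trend) at sites with a peak in all 4 lists, which leaves out lost and gained sites, at an adjusted p of 0.05. Functions were tested on simulated data first. The replicate numbers pair the libraries, since the labels tie each number to its own preparation, and same-numbered libraries deviated together, with correlations across sites of 0.40 (STAG1), 0.49 (STAG2), 0.65 (CTCF) and 0.38 (SMC1A).

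The 10 genes, the 30 other interferon-stimulated genes and the tests were chosen with earlier results of these data known. The sites named were those changed in both replicates, those within 1 kb of a start of their own gene and the strongest of each gene, and sites called by limma beyond these were named after their values were seen. The promoter sequence of 1 gene is not reported here. The main transcript is the MANE or canonical one. Alternatives were a stricter or a common q-value threshold, equal list lengths, no flanks, a 50% overlap, each replicate alone, the replicate block, percentiles in place of folds and no centring. Alternatives added after the data were seen were whole-peak comparison, quantile normalisation with the block and counting along the main transcript.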

Additional observations from a re-analysis of the deposited data

How the results depend on the processing

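The replicate block decided the site-level calls. Without it limma called 0 window sites for any antibody, and with it 3 (STAG1), 6 (STAG2), 3 (CTCF) and 11 (SMC1A). Quantile normalisation with the block gave 0, 4, 1 and 11, and the fit without centring or a block gave 1 SMC1A site, the IFIT3 start. Strength percentiles in place of folds, also fitted without a block, gave 0 calls. No called site changed direction in any of these fits, and the block left the log2 ratios of peak numbers as they were, with a sign-flip p that cannot fall below 0.500. For peak numbers, equal list lengths turned the mean STAG1 log2 ratio to −0.01, and for STAG2 the stricter threshold gave −0.14 and leaving out 1 replicate gave −0.07 to 0.10, against 0.02. Leaving out 1 replicate gave 0.07 to 0.69 for STAG1, −0.24 to −0.11 for CTCF and 0.42 for SMC1A. Shares of peaks lost moved for STAG1 from 11.8% to 23.1% with equal lengths and 7.50% without flanks, for STAG2 from 16.3% to 21.1% (stricter), 12.1% (equal lengths) and 20.4% (50% overlap), for CTCF from 21.1% to 12.9% (stricter), 16.9% (common threshold) and 24.8% (50% overlap), and for SMC1A from 15.7% to 9.04% (common threshold). Shares gained moved for STAG2 from 13.9% to 14.9% (stricter), 13.3% (common), 23.1% (equal lengths), 12.9% (no flanks) and 20.2% (50% overlap), for CTCF from 11% to 6.85% (stricter) and 15% (50% overlap), and for SMC1A from 38.2% to 27.3% (stricter). Of sites gained in both replicates, STAG1 went from 5 to 1 with equal lengths, 1 without flanks and 3 by whole peaks (2 at IFI6 and 1 at IRF7), and the SMC1A count of 7 fell to 2 at the stricter threshold and stood at 7 by whole peaks. At the stricter threshold STAG2 and CTCF had 1 gained site each in place of 0. Of sites lost in both, CTCF went from 2 to 1 at the stricter threshold, to 1 without flanks and to 1, the USP18 site, by whole peaks, STAG2 from 0 to 1 (stricter), and SMC1A from 0 to 1 (stricter) and 4 (50% overlap). The cause of these shifts was not tested. The 7 SMC1A sites gained in both replicates rested on 8 to 24 summit reads. A list needs at least 7 at its lowest background and more where more reads are expected, such as the 8.68 at chr1:949375-949559 in STAG2-KD of replicate 2. Absence in WT thus means that no peak reached the threshold and not no binding.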
